A study of Mus musculus with 9 samples.

Results

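Transcript levels were described in peripheral blood of wild-type (Cbfb+/+) mouse embryos at E12.5, on the 3 arrays of that genotype among the 9 of the study. The embryos came from matings of Cbfb+/ΔC95 parents, carried 0 copies of the ΔC95 allele and had a mixed C57BL6/129SvEv background, and the labels name no treatment. Blood of 8 to 10 embryos was pooled for RNA, and it is not stated whether each array had a pool of its own, so the spread between arrays may be technical. Each array read total RNA with an Affymetrix whole-genome mouse chip (430 2.0), on which a probe set is a group of short probes for a transcript. The study also profiled embryos with 1 or 2 copies of the allele, and no genotype is compared here. All 34945 non-control probe sets that the platform annotation assigns to 1 gene symbol were ranked by their mean log2 value over the 3 arrays, out of 45101 probe sets in the table. They stand for 18193 genes, each represented by its brightest probe set, and 411 of 447 genes in 28 lists of blood cells, other tissues and cell functions were among them.

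At this age of mouse development the circulation holds mainly primitive red cells. These large, nucleated cells are born in the yolk sac, mature in the bloodstream, and fill with hemoglobins built from embryonic globin chains. Smaller definitive red cells, made by the fetal liver, enter after the primitive ones, and macrophages, platelets and a few progenitors travel with them. Whether this blood already held definitive red cells was not tested. A maturing red cell makes heme from glycine and succinyl-CoA through a chain of enzymes, imports iron for it by way of transferrin, and builds a membrane skeleton of spectrin and ankyrin.

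Every value is a log2 signal given as mean ± SD over the 3 arrays (n = 3). Probe sets bind their targets with different strength, so a rank orders signals and not numbers of transcripts per cell. In a pool of whole blood, fewer cells of a type and less RNA per cell cannot be told apart. To read a level, 2 limits were set. The floor limit of 5.68 was the 95th percentile of 87 probe sets for 78 olfactory, vomeronasal, trace amine and taste receptor genes, which serve chemical senses and which blood has no known need of. Their median was 2.96 and their highest value 6.41. The high limit of 7.40 was the 90th percentile of all ranked probe sets. By its brightest probe set, a gene at or below the floor limit was called near the floor, a gene at or above the high limit was called high, and the rest were called middle. Of the 18193 genes, 2520 (13.9%) were high, 4303 (23.7%) middle and 11370 (62.5%) near the floor. A level near the floor does not show that a transcript is absent. The general transcription factor gene Tbp, which every cell uses, read 5.42 ± 0.08 and was itself near the floor.

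**Figure D1:**
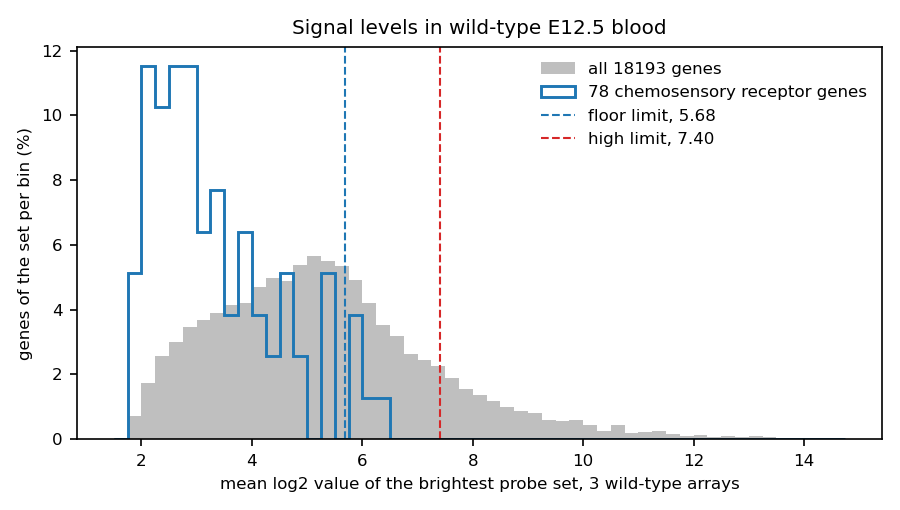
Distribution of the mean log2 value of the brightest probe set over 3 wild-type arrays (horizontal axis), as the percentage of genes of each set per bin of 0.25 (vertical axis), for all 18193 genes in grey and 78 chemosensory receptor genes in blue. The dashed lines mark the floor limit at 5.68 and the high limit at 7.40, and most chemosensory genes lie left of the first line.

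The 3 arrays gave similar values for most genes. Pearson's r between arrays was 0.998 for each pair across the probe sets that are not controls, and array medians lay between 4.26 and 4.27. RMA, named in the processing notes, equalizes array distributions, so similar medians are no sign of agreement. Over so wide a range of levels, r mostly reflects the differences between genes. Taken on each array alone, with its own limits, 17473 genes (96.0%) kept the same band on all 3. The SD over the arrays was smaller at higher levels, with a median of 0.08 for genes near the floor, 0.06 for middle genes and 0.03 for high ones. Some values repeated exactly, for a reason that was not tested. Of the ranked probe sets, 457 (1.31%) carried an identical value on all 3 arrays and 4489 (12.8%) on exactly 2. Among the listed genes this held on all 3 arrays for Alad, Pf4, Des and Tpbpa, so an SD of 0 there is no measure of error.

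**Figure D2:**
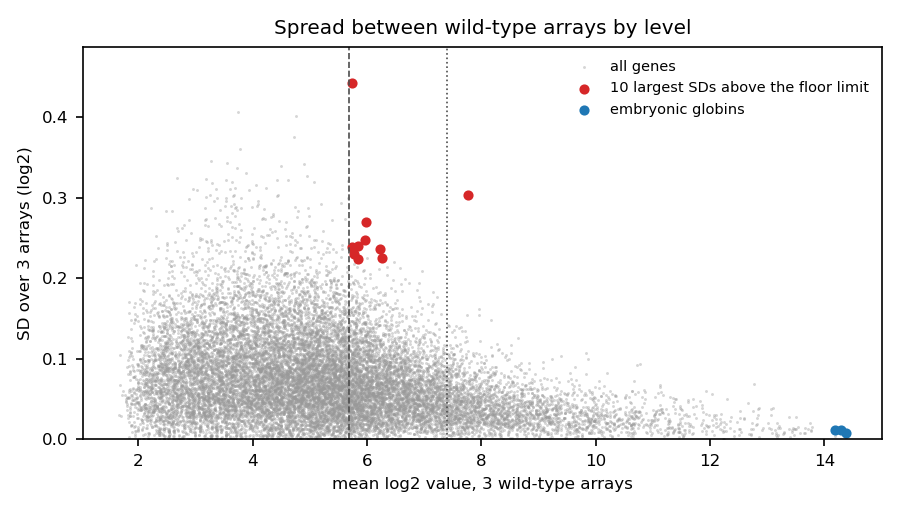
SD over the 3 wild-type arrays (vertical axis, log2) against the mean log2 value (horizontal axis) for 18193 genes, with the 10 largest SDs above the floor limit in red and the embryonic globins in blue; the dashed line is the floor limit and the dotted line the high limit. The cloud narrows to the right, and the embryonic globins lie at the far right with SDs of at most 0.0117.

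Among probe sets with 1 gene symbol, embryonic globins took ranks 1, 2 and 4. The embryonic beta-like globin Hbb-bh1 read 14.38, 14.38 and 14.37 on the 3 arrays and ranked 1 of 34945 on each. The embryonic alpha-like globin Hba-x read 14.31, 14.28 and 14.30 and ranked 2 on each. The other embryonic beta-like globin, Hbb-y, read 14.19, 14.17 and 14.19, with ranks of 4 to 6. The 3 probe sets of Hbb-bh1 and the 3 of Hbb-y all read at least 14.02. Some of them are _x_at probe sets, and whether these also bind transcripts of other beta-like globins was not tested. The highest value on any of the 3 arrays was 14.51, from a probe set shared by adult alpha globin genes, and differences this close to the top of the range may not be readable.

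Adult globins could be read in several ways that differed widely. The adult beta globin Hbb-b2 read 11.04, 11.10 and 11.16 by its brighter probe set, an _x_at one, and 3.84 by its other. Among the adult alpha globins, Hba-a2 read 8.11 ± 0.02 and Hba-a1 3.67 ± 0.01, each by a single probe set, so the second was near the floor. Outside the ranking, 3 probe sets assigned to both alpha genes read 14.50, 14.36 and 13.41, and 1 assigned to 4 adult beta globin genes read 14.15. The adult globin genes are near-identical copies, and from these probe sets their transcripts cannot be told apart. Taken at face value, the shared alpha probe set at 14.50 ± 0.01 read above every ranked probe set of the embryonic globins.

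Heme synthesis followed, with 7 of 8 measured enzymes high. Alas2, the red cell form of the first enzyme, read 13.29, 13.30 and 13.29 on the 3 arrays and ranked 35 on each. Its counterpart in other tissues, Alas1, read 5.06, 5.08 and 5.01, near the floor. The median over all genes was 5.12. Urod, the uroporphyrinogen decarboxylase, read 13.27 ± 0.01, and Fech, which inserts the iron, 13.22 ± 0.01. Alad, the second enzyme, was at 12.22, Uros at 10.63, Ppox at 10.38 and Cpox, the nearest to the high limit, at 7.53 ± 0.06. Fech had 4 probe sets, of which the dimmest read 4.75.

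The promoters of Alas2 and of the embryonic globins Hbb-y and Hba-x are shown because Alas2 leads the heme enzymes and the globins are the embryonic genes with an entry in the promoter table. Hbb-bh1 has no entry in it. Each is the 250 bases before the annotated start, read in the direction of the gene, from RefSeq tables of build GRCm38.p6. Capitals mark matches on either strand to 4 motifs, none of which overlap here. The first is AGATAA, a form that GATA factors bind, and other forms were not searched or marked. Klf1 and related factors bind the second, CCACACCC. The third is CCAAT, common in promoters. TATAAA is the core of the TATA box. Hbb-y lies at chr7:103853208-103853457 on the minus strand, Hba-x at chr11:32276350-32276599 on the plus strand and Alas2 at chrX:150547167-150547416 on the plus strand.
Hbb-y: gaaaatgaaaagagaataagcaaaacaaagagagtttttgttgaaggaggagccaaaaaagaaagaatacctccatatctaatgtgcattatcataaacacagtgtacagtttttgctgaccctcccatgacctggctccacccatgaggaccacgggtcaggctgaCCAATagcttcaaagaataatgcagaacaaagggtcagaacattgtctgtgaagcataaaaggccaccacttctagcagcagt
Hba-x: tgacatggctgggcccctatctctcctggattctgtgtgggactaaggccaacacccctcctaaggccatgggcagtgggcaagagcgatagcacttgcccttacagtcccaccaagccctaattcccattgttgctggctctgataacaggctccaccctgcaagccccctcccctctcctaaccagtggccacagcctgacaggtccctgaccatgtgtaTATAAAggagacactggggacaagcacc
Alas2: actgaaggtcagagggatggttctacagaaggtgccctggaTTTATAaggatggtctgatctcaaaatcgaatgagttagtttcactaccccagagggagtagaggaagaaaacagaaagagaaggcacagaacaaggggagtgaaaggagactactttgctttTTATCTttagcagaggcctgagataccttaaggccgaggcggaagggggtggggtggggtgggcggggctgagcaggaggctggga
In Hba-x a TATAAA began 28 bases before the start, and in Hbb-y a CCAAT began 83 bases before it. In Alas2 an AGATAA on the opposite strand began 86 bases before the start, and a TATAAA on that strand 209 bases before it. Of the 69 high genes in the 6 red cell lists, 55 had 72 promoters of 300 bases in the table (50 of them after the start). AGATAA was in 15.3% of these 72 and in 11.2% of all 32851 promoters, CCACACCC in 1.39% and 3.56%, CCAAT in 36.1% and 37.4%, and TATAAA in 9 of the 72 and in 13.6% of all. A match is a description of letters, not a site, and no match says only that the letters are not in this window.

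Iron handling was high in 11 of 15 measured genes. The ferritin heavy chain Fth1, which stores iron, read 14.20 ± 0.00 and ranked 3. Glrx5, a glutaredoxin of iron-sulfur cluster assembly, was at 13.44, the mitochondrial iron importer Slc25a37 (mitoferrin 1) at 12.51, the ferritin receptor of autophagy Ncoa4 at 12.10 and the mitochondrial transporter Abcb10 at 10.51. Tfrc, the transferrin receptor through which red cell precursors take up iron, read 11.07, 11.13 and 11.20. The lowest members were the iron regulatory protein Ireb2 at 6.87, the heme oxygenase Hmox2 at 6.80, and near the floor the other iron regulatory protein Aco1 at 5.52 and Flvcr2 at 3.94. The heme exporter Flvcr1 was high at 7.67 and the ferrireductase Steap3 at 7.47, both close to the limit.

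Membrane and surface genes of red cells were high in 20 of 23. Slc4a1, the anion exchanger band 3, read 12.71, 12.75 and 12.74 and ranked 74 to 78. It was followed by the surface protein Cd24a at 12.52, the blood group proteins Rhd at 12.03, Kel at 11.98 and Ermap at 11.83, and the adhesion molecule Icam4 at 11.33. Of the skeleton and anchor genes, Dmtn read 10.90, Add1 10.65, Ank1 (ankyrin) 9.65, Sptb (beta spectrin) 9.16, Epb42 9.10 and Tmod1 8.51, all high. The lowest 4 were Gypc (glycophorin C) at 7.80, the nucleoside transporter Slc29a1 at 6.43, the urea transporter Slc14a1 at 5.31 and the water channel Aqp1 at 3.51. Aqp1, which is abundant in adult red cells, was near the floor on each array, at 3.66, 3.60 and 3.28, by its only probe set.

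Enzymes and maturation factors were high in 15 of 18. The peroxide-reducing enzymes Gpx1 at 13.76 ± 0.01 and Prdx2 at 13.50 ± 0.01, together with the carbonic anhydrase Car2 at 13.58 ± 0.01, were among the 30 highest genes. Bpgm, which makes the regulator of oxygen affinity 2,3-bisphosphoglycerate, was at 12.25, as was the biliverdin reductase Blvrb. The autophagy gene Map1lc3b was at 12.20 and the ubiquitin ligase gene Trim10 at 11.97. The lowest 4 were Pklr (red cell and liver pyruvate kinase) at 8.45, Ulk1 at 7.24, Isg20 at 5.63 and Alox15 at 3.90. Isg20 lay at the floor limit, on its upper side on 1 array and on its lower side on the others.

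Erythroid transcription factors were all above the floor, 13 of 17 high and 4 middle. Klf1, the Kruppel-like factor of red cells, read 12.02, 11.97 and 11.96. Nfe2 was at 11.86 ± 0.01, Tal1 at 11.64 ± 0.03 and Gata1, the GATA factor of red cells and megakaryocytes, at 10.88 ± 0.03. Foxo3 at 9.95 and Lyl1 at 9.80 came next. The lowest were the Tal1 partner Ldb1 at 7.38, Mafk at 7.11, the corepressor Cbfa2t3 at 6.63 and E2f4 at 5.84. Ldb1 sat at the high limit and changed band between arrays. E2f4 read below the highest chemosensory probe set at 6.41, so its place above the floor rests on the limit chosen.

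All 8 genes of erythropoietin signalling were above the floor. The receptor Epor read 9.03, 9.01 and 9.02, the target kinase Pim1 9.73 ± 0.03 and the feedback inhibitor Cish 7.67, which made 3 high genes. Stat5a at 7.26, Socs3 at 7.21, Stat5b at 7.10, Socs2 at 7.04 and Jak2 at 6.72 were middle. Jak2 is the kinase of the receptor, and Stat5a and Stat5b are the transcription factors it activates.

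Over the 6 lists of red cell genes together, 69 of 84 measured genes (82.1%) were high and 7 (8.33%) near the floor, against 13.9% and 62.5% of all genes. These lists are the embryonic globins, heme synthesis, iron handling, membrane and surface, enzymes and maturation, and erythroid transcription factors. They leave out the adult globins (2 of 3 high), erythropoietin signalling (3 of 8) and a list of definitive red cells and their precursors. The adult globins read high by several probe sets, among them Hbb-b2 at 11.10, Hba-a2 at 8.11 and a shared alpha probe set at 14.50. Which red cells these transcripts came from was not tested. In the list of definitive red cells and their precursors, which holds no globin, none of 6 genes was high. Bcl11a, a repressor of embryonic globins, was middle at 6.22, 6.21 and 6.22, and 6 other probe sets of the gene read down to 2.25. The others were near the floor by their means. They were the progenitor factor Myb at 5.39 ± 0.27, Sox6, another globin repressor, at 5.35 ± 0.06, the carbonic anhydrase Car1 at 4.29 ± 0.18, Cd44 at 4.17 ± 0.08 and Kit, the stem cell factor receptor, at 3.87 ± 0.14. Myb read 5.70, 5.31 and 5.18, so the first array was above the floor limit and the other 2 below it.

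**Figure D3:**
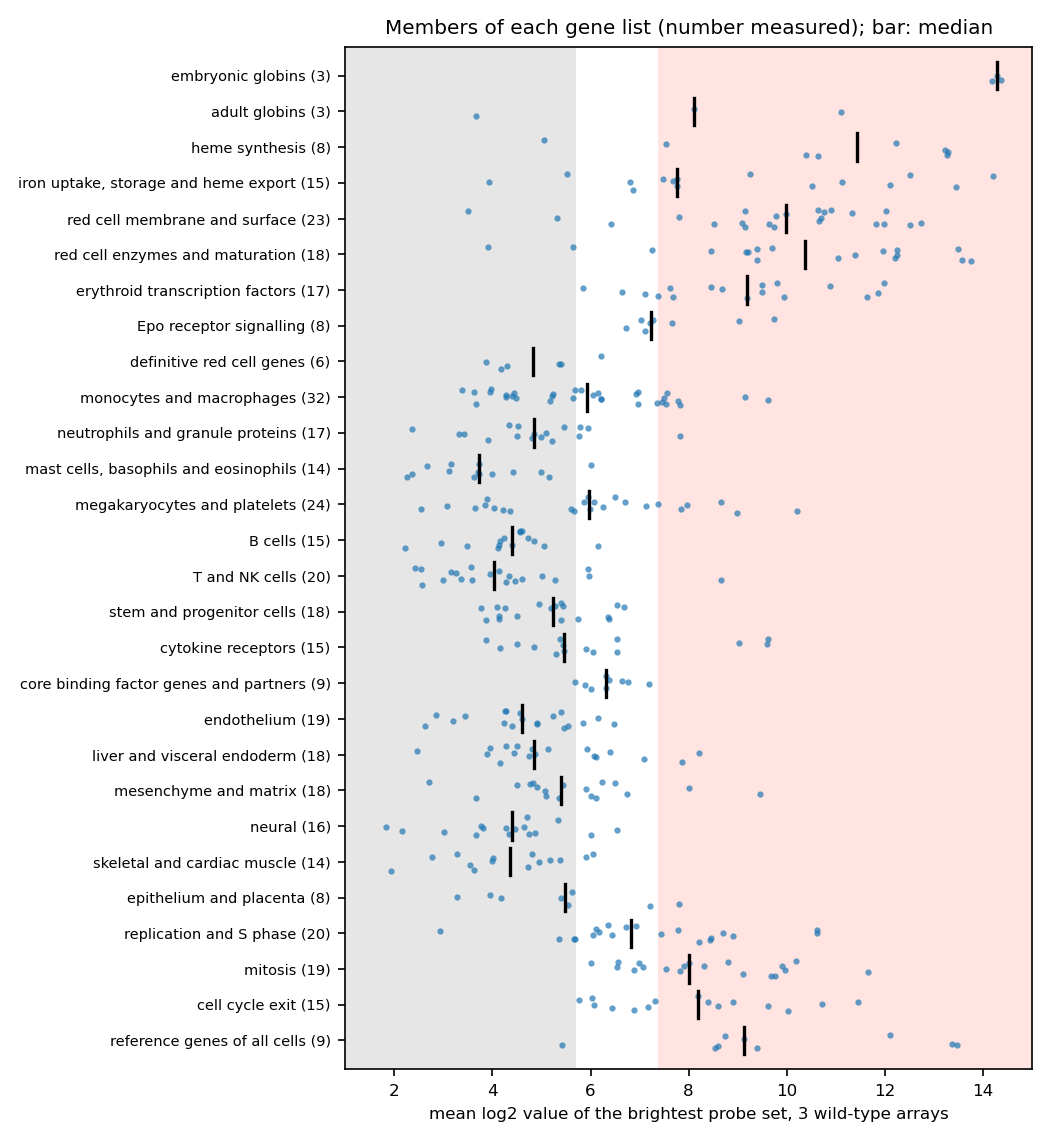
Mean log2 value over 3 wild-type arrays (horizontal axis) of each measured member of the 28 gene lists (vertical axis, number measured in brackets), 1 point per gene, vertical position within a row random, with a black bar at the list median. The grey band is at or below the floor limit of 5.68 and the pink band at or above the high limit of 7.40; red cell lists lie mostly in the pink band, and lists of lymphoid cells, mast cells, endothelium, nerve and muscle mostly in the grey band.

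Macrophage genes were spread over all 3 bands. Of 32 measured, 8 were high, 9 middle and 15 (46.9%) near the floor. Over all genes, 13.9% were high, 23.7% middle and 62.5% near the floor. Csf1r, the growth factor receptor on which macrophages depend, read 9.62, 9.59 and 9.64 and ranked 842 to 870. Its other probe sets read 8.14 and 7.56, so all 3 were high. The lysosomal protease Lgmn read 9.17, 9.14 and 9.13. The mannose receptor Mrc1 was at 7.82 ± 0.06, the Fc receptor Fcgr3 at 7.78 ± 0.06, and the complement chains C1qb at 7.56 ± 0.07 and C1qc at 7.54. The adaptor Tyrobp at 7.51 and the lysozyme Lyz2 at 7.45 lay just above the high limit and Lyz1 at 7.36 just under it.

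Other genes used to recognise macrophages were near the floor. The myeloid transcription factor Spi1 was at 5.67 and the membrane protein Ms4a7 at 5.64, both at the limit, with the second array above it and the other 2 below. The lysosomal marker Cd68 read 5.24, the fractalkine receptor Cx3cr1 4.44 and the integrin Itgam 3.98. The lowest 4 were the NADPH oxidase subunit Cybb at 3.95, the receptor kinase Axl at 3.67, the phosphatidylserine receptor Timd4 at 3.63 and the hemoglobin scavenger receptor Cd163 at 3.37. The third complement chain, C1qa, was middle at 6.93, as were the scavenger receptor Msr1 at 5.81 and the Fc receptor Fcgr1 at 6.20, so neither complement genes nor phagocytic receptors kept to a single band. Of the 17 macrophage genes above the floor limit, 9 (52.9%) were highest on the second array, compared with 36.1% of all 6823 genes above it. The median deviation on that array was 0.04 for the 17 and 0.01 for all 6823. Such a lean was not particular to macrophage genes. The first array was highest in 11 of 17 erythroid transcription factors, all above the floor limit, compared with 33.5% of the 6823 genes. The third was highest in 10 of 15 B cell genes, compared with 27.7% of all genes, but 14 of those 15 were near the floor. The 14 megakaryocyte genes above the limit showed no lean, with 4 highest on each array.

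Megakaryocyte and platelet genes were spread in the same way, 5 (20.8%) of 24 high, 9 (37.5%) middle and 10 (41.7%) near the floor. The shares of all genes were 13.9%, 23.7% and 62.5%. The platelet tubulin Tubb1 led with 10.22, 10.25 and 10.15. The platelet chemokine Pf4 read 8.99 on all 3 arrays, the clotting factor subunit F13a1 8.67, the tetraspanin Cd9 7.96 and the fibrinogen receptor subunit Itga2b 7.84 ± 0.04. Gp9, a subunit of the receptor for von Willebrand factor, was at the high limit with 7.38, and its partners Gp1bb and Gp5 were middle at 6.70 and 5.98. Ppbp, the other platelet chemokine gene of the list, read 7.12.

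Vwf itself, made by endothelium and megakaryocytes, was near the floor at 4.36, as was the adhesion molecule Selp at 3.90. The lowest 4 were the nucleotide receptors P2ry1 at 3.84 and P2ry12 at 3.08, the secretion gene Rab27b at 3.65 and the transcription factor Fli1 at 2.54. Both probe sets of Fli1 were near the floor.

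**Figure D4:**
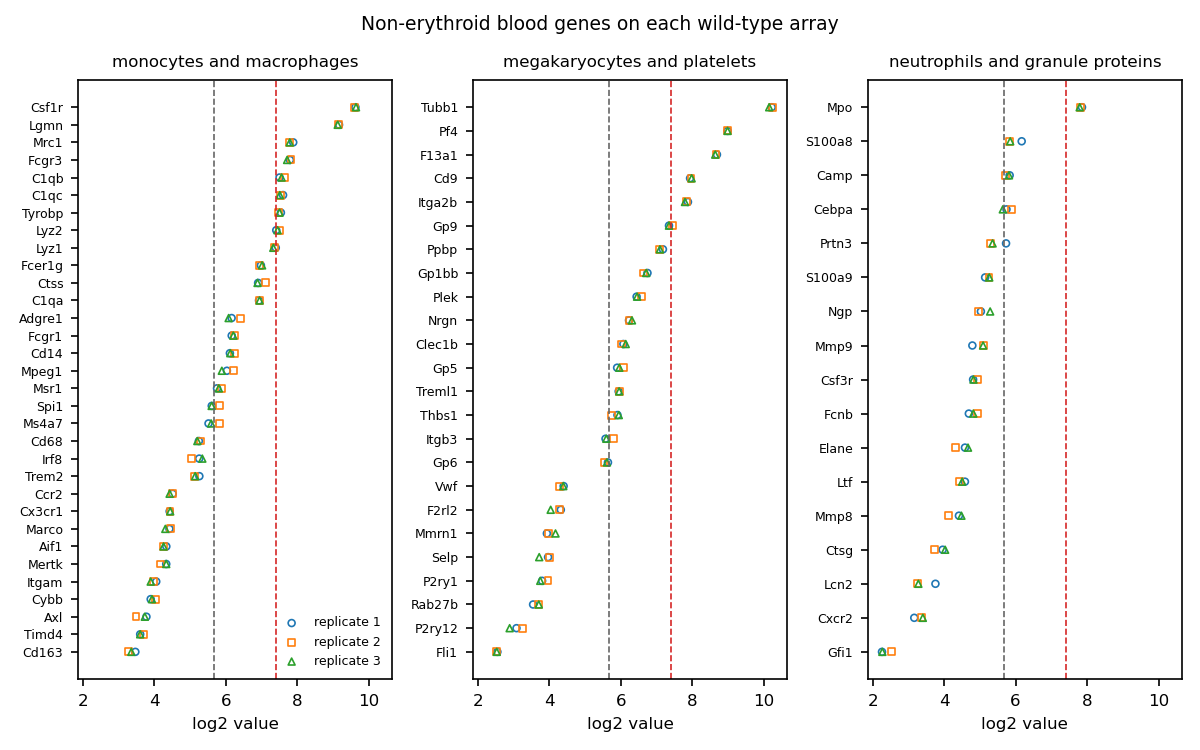
Log2 value on each of the 3 wild-type arrays (horizontal axis; circles, squares and triangles for replicates 1, 2 and 3) of every measured gene (vertical axis) of the macrophage, megakaryocyte and neutrophil lists. The black dashed line is the floor limit of 5.68 and the red dashed line the high limit of 7.40; the symbols of a gene lie close together, and the neutrophil list has 1 gene, Mpo, right of the red line.

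Neutrophil genes were mostly near the floor, 13 (76.5%) of 17 against 62.5% of all genes. The exception in the high band was Mpo, the myeloperoxidase of primary granules, at 7.86, 7.81 and 7.79. S100a8 at 5.95 ± 0.19, the antimicrobial peptide gene Camp at 5.79 and the transcription factor Cebpa at 5.76 were middle. The granule protease gene Prtn3 read 5.46 and S100a9 5.22, near the floor. The lowest were Ctsg at 3.91, Lcn2 at 3.43, the chemokine receptor Cxcr2 at 3.31 and the transcription factor Gfi1 at 2.35. S100a8, whose product pairs with that of S100a9, read 6.17, 5.82 and 5.85, highest on the first array.

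Mast cell, basophil and eosinophil genes were near the floor in 13 of 14. The tryptase Tpsb2 was the exception at 6.01, but read 2.88 by its other probe set. Next came Cpa3 (carboxypeptidase) at 5.15, the histamine-forming enzyme Hdc at 4.98, Mcpt8 at 4.42, Cma1 at 3.99 and Prg2 at 3.73. The IgE receptor subunits Ms4a2 at 3.11 and Fcer1a at 2.67, Ccr3 at 2.37 and Siglecf at 2.26 were lowest.

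B cell genes were near the floor in 14 of 15, with a median of 4.39. The kinase Blk was middle at 5.98, 6.14 and 6.31. Next came Dntt, which adds bases at antigen receptor joints, at 5.06, the receptor subunit Cd79a at 4.84, the surrogate light chain gene Vpreb1 at 4.72, Pax5 at 4.61 and Igll1 at 4.56. The lowest were Fcer2a at 4.10, the recombinase genes Rag2 at 3.48 and Rag1 at 2.21, and Ms4a1 (CD20) at 2.95.

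T and NK cell genes were near the floor in 17 of 20. The kinase Zap70, which acts behind the T cell receptor, was the 1 high gene, at 8.74, 8.61 and 8.66. Its other probe sets read 5.98 and 4.97, so the 3 probe sets of Zap70 fell in 3 different bands. The coreceptors Cd8a at 5.96 and Cd4 at 5.94 were middle by their brightest probe sets, and their other probe sets were near the floor, down to 2.69 and 4.34. The factor Bcl11b at 5.28, the perforin gene Prf1 at 5.00 and Il2rb at 4.61 came next. The receptor chains Cd3d, Cd3e and Cd3g read 4.46, 4.35 and 3.37. The lowest were Cd28 at 2.99, Gzma at 2.57, Gata3 at 2.55 and Tbx21 at 2.42.

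Stem and progenitor genes held none in the high band, 5 (27.8%) middle and 13 (72.2%) near the floor of 18. Over all genes the shares were 13.9%, 23.7% and 62.5%, so the middle and floor shares were not far from those. Mycn at 6.68, the receptor kinase Flt3 at 6.54, Runx1 at 6.38, Gata2 at 6.35 and the sialomucin gene Spn at 5.74 were middle, and Hoxa9 at 5.43 came next. Cd34 read 4.51 and the pan-leukocyte gene Ptprc (CD45) 4.96. The lowest 4 were Slamf1 at 4.13, Meis1 at 4.09, Kit at 3.87 and Thy1 at 3.76.

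Cytokine receptors were high in 3 of 15 and near the floor in 8. Over all genes, 13.9% were high and 62.5% near the floor, so these counts were not far from those shares. Beside Csf1r and Epor, the other high gene was Csf2rb, at 9.57, 9.59 and 9.61, with its other probe set at 8.57. Csf2rb is the beta chain shared by the receptors for IL-3, IL-5 and GM-CSF. The alpha chains that pair with it were near the floor, Il3ra at 5.46 and Csf2ra at 4.51. Csf2rb2 and Flt3 read 6.54 and the interferon receptor chains Ifnar1 and Ifngr1 6.05 and 5.90. Il7r, the receptor of early lymphocytes, was at 4.16, Csf3r at 4.85 and Tgfbr2 at 5.29.

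The 9 measured genes of core binding factor and its partners were all in the middle band by their brightest probe sets. That rests on the floor limit of 5.68. With a limit of 6.39, from photoreceptor, lens, sperm and enamel genes, only Runx1t1, Myh9 and Cbfa2t3 would stay above it. Cbfb, Runx1, Runx3, Myh11, Myh10 and Cbfa2t2 would be near the floor, and they also read below the highest chemosensory probe set at 6.41. Cbfb has a single probe set, and each of the other 8 had at least 1 near the floor, among them Myh11 at 3.83 and Runx3 at 3.50. Cbfb, the subunit that does not bind DNA and the gene targeted in the study, read 6.00, 6.04 and 5.98. Its DNA-binding partners Runx1 and Runx3 were at 6.38 ± 0.07 and 5.89 ± 0.06. Myh11, the smooth muscle myosin gene to which CBFB is fused in leukemia, read 6.32 ± 0.05. The nonmuscle myosin genes Myh9 and Myh10 were at 6.76 and 5.69, and the second of these lay at the floor limit, under it on the second array. The corepressors of the ETO family were at 7.19 ± 0.09 for Runx1t1, 6.63 for Cbfa2t3 and 6.31 for Cbfa2t2. The 6 probe sets of Runx1 ran from 6.38 down to 2.89.

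Cell division genes were well represented. Of 19 mitosis genes, 13 (68.4%) were high and none was near the floor. They were led by the ubiquitin-conjugating enzyme Ube2c at 11.66 ± 0.02, Birc5 (survivin) at 10.20, the spindle protein Nusap1 at 9.96, the anaphase activator Cdc20 at 9.91, Mki67 at 9.75 and Ccnb2 at 9.68. The lowest were the motor proteins Kif23 at 6.88, Cenpe at 6.57 and Kif11 at 6.02, and the kinase Aurkb at 6.53. Kif11 read below the highest chemosensory probe set at 6.41.

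Replication genes were high in 9 of 20, with 3 near the floor. The cyclin Ccna2 read 10.64, 10.62 and 10.62 and the replication clamp Pcna 10.65, 10.61 and 10.59. Rrm2 was at 8.91, and the helicase subunits Mcm7, Mcm5 and Mcm2 were at 8.70, 8.46 and 8.44. At the low end were Cdc6 at 5.68, Pola1 at 5.67, Ung at 5.36 and the thymidylate synthase Tyms at 2.94. All 4 probe sets of Tyms read 2.94 or less, while the other genes of nucleotide supply in the list did not, with Rrm1 at 8.21 and Tk1 at 6.93.

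Genes of cell cycle exit were high beside them, 8 of 15, with none near the floor. Ccnd3, the D cyclin of red cell precursors, read 11.46 ± 0.01, Btg1 10.71, the CDK inhibitors Cdkn2d and Cdkn2c 10.03 and 8.91, Gadd45a 9.61 and Ccng2 8.60. The lowest were Cdkn1a at 6.44, Gadd45b at 6.07, Ccnd2 at 6.02 and Rbl2 at 5.77. All of these except Cdkn1a read below the highest chemosensory probe set at 6.41. The list also holds D cyclins, which drive entry into the cycle, so its count is not one of arrest genes alone.

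Markers of endothelium, nerve and muscle were near the floor for the most part. Of the endothelial genes, 16 of 19 were near the floor, with Eng at 6.48, Egfl7 at 6.14 and Sox18 at 5.84 middle, and Nos3 at 5.54, Ramp2 at 5.47 and Sox17 at 5.40 next. The junction gene Cdh5 read 4.61, and Tie1 at 3.45, Pecam1 at 3.19, Tek at 2.85 and Emcn at 2.63 were lowest. Neural genes were near the floor in 14 of 16, with Nes at 6.54 and Elavl3 at 6.01 above it and Snap25 lowest at 1.84. Muscle genes were near the floor in 12 of 14, with Mylpf at 6.05 and Des at 5.91 above it and Myf5 lowest at 1.93. These shares, 84.2%, 87.5% and 85.7%, are above the 62.5% of all genes.

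Liver and mesenchyme lists had shares close to those of all genes, with 11.1% high in each and 61.1% and 55.6% near the floor, against 13.9% and 62.5%. Of 18 liver and visceral endoderm genes, Apoe at 8.20 ± 0.04 and Afp (alpha-fetoprotein) at 7.86 ± 0.03 were high, and Ttr at 7.09, Apoa2 at 6.39, Apoa1 at 6.11 and Apom at 6.08 were middle. Alb, the albumin gene, was near the floor at 4.87, and 11 of the 18 were, down to Fga at 2.47. The 5 probe sets of Afp ran from 7.86 to 4.62. Of 18 mesenchyme genes, Sparc was high at 9.52, 9.44 and 9.40 and Fn1 (fibronectin) at 8.01 ± 0.03 (4.43 by its other probe set), with Col1a2 at 6.74, Vim (at 6.52, 6.46 and 6.52 on the 3 arrays), Col3a1 at 6.23 and Pdgfrb at 6.12 middle, and Twist1 lowest at 2.71. Of 8 epithelial and placental genes, the keratin Krt8 was high at 7.80 ± 0.05 and its partner Krt18 middle at 7.20, while Epcam was at 5.62, Krt5 at 5.55, Krt19 at 5.40, Cdh1 at 4.17, Krt14 at 3.95 and Tpbpa at 3.28. Whether these transcripts come from blood cells or from other tissue in the pools was not tested.

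Genes of every cell gave a scale for the rest. Of 9 measured reference genes 8 were high. They were Eef1a1 at 13.46 and Rplp0 at 13.38 (translation), Actb at 12.10, B2m at 9.40, Pgk1 at 9.14, Sdha at 8.74, Ywhaz at 8.60 and Hprt at 8.53.

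The 30 highest genes, all at 13.20 or above, fell into few groups. They held 11 genes of the red cell lists and 11 ribosomal protein genes, led by Rpl41 at 13.74, Rpsa at 13.66 and Rps14 at 13.65. The others were the elongation factor Eef1a1, the poly(A)-binding protein Pabpc1 at 13.71, the translationally controlled protein Tpt1 at 13.78, the cytochrome oxidase subunit Cox6a1 at 13.77, the Nudix hydrolase Nudt4 at 13.66, the mitochondrial carrier Slc25a39 at 13.44, the glutathione transferase Mgst3 at 13.40 and Oaz1, which restrains polyamine synthesis, at 13.20. Their order was only partly resolved. Of the 29 neighbouring pairs, 16 had overlapping array values, so those neighbours do not differ beyond their spread.

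The largest spread between arrays above the floor was in genes of low level. Nxpe2 read 5.23, 6.06 and 5.90, an SD of 0.44, with the first array below the floor limit. Rab3a, a vesicle GTPase, was the 1 high gene among the 10 with the largest SD, at 7.42, 7.95 and 7.95. The other 8 had SDs of 0.22 to 0.27 and means of 5.74 to 6.26. They included the inflammasome adaptor Pycard at 6.13, 6.07 and 5.68, the centromere protein Cenpc1 at 5.58, 5.94 and 6.03 and the exosome subunit Exosc1 at 5.48, 5.79 and 5.95. In 7 of the 10, Nxpe2, Rab3a, Cenpc1, Exosc1, Etfrf1, Mettl22 and Spint2, the first array was lowest. Among all 6823 genes above the floor limit, the first array was lowest in 2193, the second in 1814 and the third in 2581. No blood lineage gene of the lists was among the 10.

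Probe sets of the same gene often disagreed. Of the 18193 genes, 9010 (49.5%) had several probe sets, whose brightest and dimmest means differed by a median of 1.80. Among 1689 such genes with the brightest probe set high, 1019 (60.3%) had another near the floor. The levels given are those of the brightest probe set unless another is named, and a band can differ by another probe set also where none is given.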

How the data were processed

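RNA-STAT was used to isolate RNA from pooled blood, and a one-cycle kit to label it, per the labels' protocols. Expression Console 1.0 (Affymetrix), Partek 6.5 and RMA appear in the submitters' processing notes, whose listing gives no role for any of them. The values deposited by the authors were taken as log2, from their range (1.57 to 14.51 on the 3 wild-type arrays) and from RMA being named. RMA subtracts background, equalizes array distributions over all arrays processed together and summarizes the probes of a set, so levels are relative within an array. No detection call entered the ranking, which leaves signal over background unknown.

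Of 45101 probe sets, 64 controls, 932 with several symbols and 9160 unnamed in GEO's platform annotation were left out. Of the 34945 ranked, 34741 matched RefSeq (GRCm38.p6) by Entrez identifier and 0 changed symbol. Means, SDs, ranks and bands were computed with pandas 2.3.3 and NumPy 2.4.6, figures with matplotlib 3.10.9, and the band calls were tested on simulated data. No hypothesis test was run, since 1 group is described, and having 3 arrays limits precision. The genes described and the lists were chosen with earlier results of these data known. Genes named were the 30 highest, the 10 largest SDs above the floor limit, Cbfb, Runx1 and Myh11, every member of lists of up to 10 genes and the 6 highest and 4 lowest of longer lists, passing over predicted genes and clone names. Other list members, probe sets shared by adult globin genes and gene families were added after their values were seen. The alternatives were other floor and high limits, another floor gene set, the median probe set of a gene, a ranking without _x_at and _s_at probe sets, the median of arrays, quantile normalization and leaving out each array.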

Additional observations from a re-analysis of the deposited data

How the results depend on the processing

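Leaving out an array changed the counts little. Without replicate 1, 2 or 3 in turn, 2515 to 2522 of all genes were high and 11224 to 11418 near the floor, and 29 to 30 of the 30 highest genes were kept. The high limit was set anew each time as the 90th percentile of the ranked probe sets. The count of high genes was therefore nearly fixed in advance and does not measure stability. Of the recomputed counts for all genes, red cell genes, the macrophage, megakaryocyte, neutrophil, B cell, T and NK cell and progenitor lists, the 30 highest genes, array agreement and promoter motifs, 187 stayed within 1.5 times the reported count and 16 did not, as follows. With the high limit at the 80th percentile, 4942 of all genes, 10 megakaryocyte and 4 progenitor genes were high. With it at the 95th, these were 1267 of all genes, 3 megakaryocyte, 2 macrophage and 0 neutrophil genes. With the median probe set of a gene, 1537 of all genes and 0 T and NK cell genes were high, and 19 of the 30 highest genes were kept. With the floor at the 90th percentile of the chemosensory probe sets, 4 red cell and 8 progenitor genes were near it. On the given strand only, 4 promoters held AGATAA, 16 CCAAT, 0 CCACACCC and 5 TATAAA. For the other lists, 480 recomputed counts stayed within 1.5 times the reported count and 48 did not. The 5 counts that moved with the floor from photoreceptor, lens, sperm and enamel genes were all in those lists. Apart from the limits, which set these counts by construction, the cause was not tested. No paired analysis was possible because 1 group is described and no result comes from a test. Without detection calls, levels at or below 5.68 cannot be told from those of the chemosensory probe sets.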

Other observations

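Several gene families outside the lists also stood high in wild-type blood; they were picked by symbol after their values were seen, so their counts are a description. Of 49 cytosolic ribosomal protein genes in the ranking, 38 (77.6%) were high, against 13.9% of all genes, and the lowest was Rpl3l, a muscle form, at 2.70. Proteasome subunits were high in 32 of 39, led by Psma2 at 11.16, with Psmb11, the thymus subunit, lowest at 3.80. Subunits of mitochondrial complex I were high in 32 of 34, led by Ndufa3 at 12.18. Mitochondrial ribosomal proteins were high in 42 of 76, and the ubiquitin-conjugating enzymes in 19 of 28, led by Ube2s at 12.71.

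Other families, also picked after their values were seen, held few high members. Over all genes, 13.9% were high and 62.5% near the floor. Of 69 potassium channel genes, 59 (85.5%) were near the floor, while Kcnn4, the calcium-activated channel of red cells, read 10.09. Of 44 keratins, 37 (84.1%) were near the floor and Krt8 was the 1 high member. None of 28 interleukin genes was high, and 25 (89.3%) were near the floor. Of 305 genes named as zinc finger proteins by the prefix Zfp, 9 (2.95%) were high, led by Zfp622 at 9.50, and 238 (78.0%) were near the floor.

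Outside the ranking, 262 (28.1%) of the 932 probe sets with several symbols and 194 (2.12%) of the 9160 without a symbol read above the high limit, against 10.0% of the ranked probe sets. The brightest probe set without a symbol read 14.00.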
